A study of Mus musculus with 16 samples.

Results

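Messenger RNA levels of E14 mouse embryonic stem cells after 1 day in auxin were compared with those of untreated cells of the same line. Both groups carried the genotype written as Ddx10-AID, Tir1: the RNA helicase gene Ddx10 fused to an auxin-inducible degron, and Tir1, the plant protein that recognises the degron when auxin is present. Untreated cells received no auxin, and the treated cells received indole-3-acetic acid, a natural auxin, at 500 µM for 1 day. All cells shared gelatin-coated plates and medium with serum, leukemia inhibitory factor (LIF) at 1000 U/mL, CHIR99021 at 3 µM and PD0325901 at 1 µM, that is, a GSK3 inhibitor and a MEK inhibitor that hold cells in the naive state. Each group held 2 libraries, and 12 further libraries (2, 4, 6 and 12 h, 2 days, and 2 days with a withdrawal of 2 days) served to estimate the spread. The members were the 13355 genes, of 14552 in the table, with a mean of at least 10 normalized counts over the 16 libraries. Only 1 line was sampled, no auxin-treated cells without the degron were analysed here, and the labels do not say that replicates were separate cultures. Effects of auxin itself and of DDX10 loss therefore cannot be told apart, and p-values measure the spread between these libraries, which may be technical.

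DDX10 is a DEAD-box RNA helicase of the nucleolus. It belongs to the machinery that matures the RNA of the small ribosomal subunit, in which the long precursor transcript is cut, folded and modified step by step. Stem cells in culture grow fast and make many ribosomes. When ribosome assembly fails, unassembled ribosomal proteins can bind and block MDM2, the enzyme that marks the transcription factor p53 for degradation.

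Replicates of both groups were uneven. The SD over genes of the log2 difference between replicates was 0.619 for untreated and 0.533 at 1 day, against 0.368 to 0.414 in the other 6 groups. Between the untreated replicates 8.16% of genes were 2-fold or more apart, and between the 1 day replicates 5.8%. Normalized totals were 16900740 and 16400517 untreated and 15710288 and 15067041 at 1 day. Reads on genes, estimated from the step between low values, ran from 13600000 to 17500000 over the 16 libraries. In bulk RNA, fewer cells of a type and less RNA per cell cannot be told apart.

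Because of that unevenness, genes are described first by whether the 4 values overlapped. Both values at 1 day lay above both untreated values for 3653 genes (27.4% of those tested) and below them for 3867 (29%). In all 7520 genes (56.3%) had no overlap, and the values of the other 5835 overlapped. Without any change, 2 exchangeable libraries against 2 have a probability of 0.333 of no overlap in either direction. A gene was called when limma, fitted to log2(value + 1) over all 16 libraries, gave a Benjamini-Hochberg adjusted p under 0.05. Calls numbered 2125 higher (15.9%) and 2359 lower (17.7%), and 99.24% of these 4484 genes (33.6%) also had no overlap. A small adjusted p from 2 libraries against 2 nearly requires this, so it is no separate evidence. At least 2-fold changes were found for 818 of the higher and 457 of the lower genes. The median change over all genes was -0.01, and the median standard error was 0.158. An exact two-sided permutation test of 1 gene with 2 libraries against 2 cannot give a p below 0.333, so every adjusted p here rests on the spread pooled over groups.

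**Figure D1:**
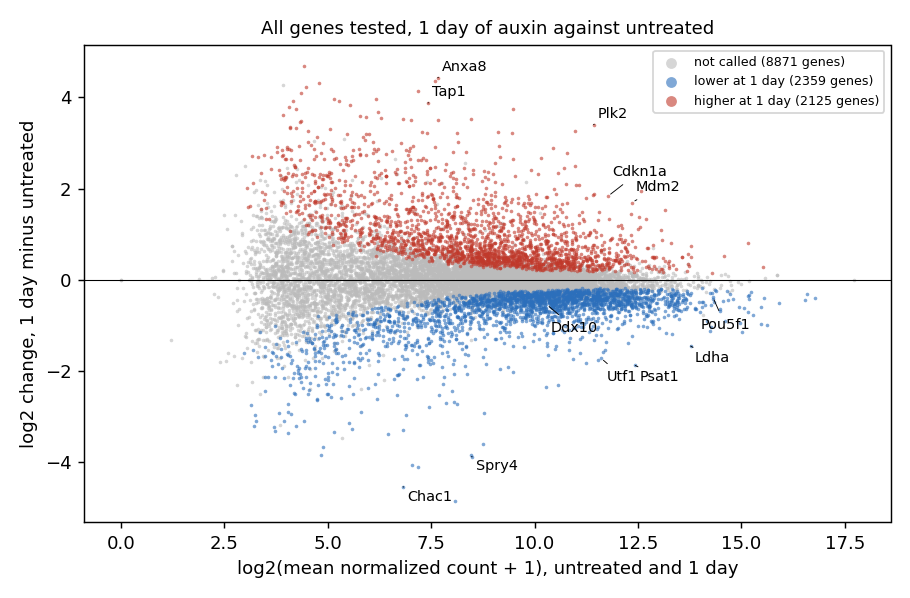
Log2 change at 1 day minus untreated (y axis) against the log2 of the mean normalized count + 1 over the 4 libraries (x axis, log scale) for the 13355 genes tested, 1 point per gene, coloured by call. The 2359 lower calls spread along the highly expressed side at small changes, and the genes named on the plot are among those described in the text.

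The calls depended on how the spread was estimated. The spread pooled over all groups is narrower than that within the untreated and 1 day groups, so the main fit tends to understate the standard errors of this comparison. With library weights from limma, which gave untreated 0.385 and 1 day 0.346 against 1.247 to 1.588 for the other groups, 873 higher and 1001 lower calls were made. With the 4 libraries fitted alone, leaving 2 residual degrees of freedom, they were 682 and 537. Without untreated replicate 2, 3172 of the 4484 calls were kept, and without the other compared libraries 3334 to 3639. A stricter class, chosen after the data were seen, held genes called, without overlap, and still called without each of the 4 libraries in turn and with library weights. It contained 854 higher (6.39%) and 974 lower genes (7.29%), and these are called stable below. A call with the 4 libraries fitted alone was not required, so a stable call need not hold in that fit.

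**Figure D2:**
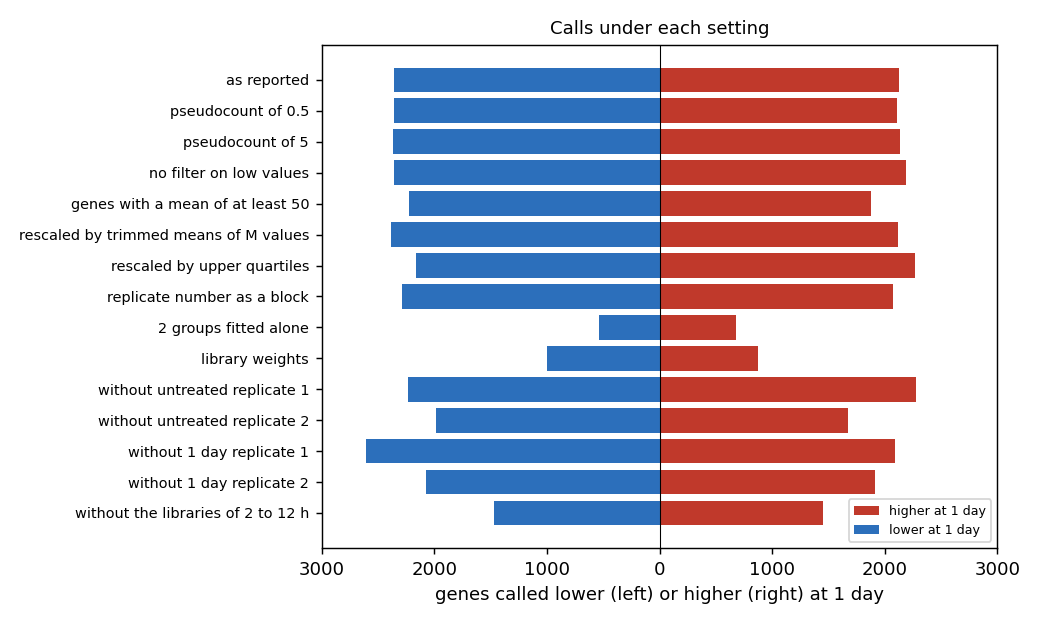
Number of genes called lower (bars to the left) and higher (bars to the right) at 1 day against untreated under each setting of the fit. The shortest pair of bars belongs to the 2 groups fitted alone (682 higher, 537 lower) and the next shortest to the library weights (873 and 1001).

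Called genes were spread over all chromosomes, and lower calls were more often in abundant genes. Lower calls had a median level of 1065 normalized counts and higher calls of 424.6, against 407.4 over all genes. Among the 3339 genes of highest level, 33.3% were called lower and 14.7% higher, whereas among the 3339 of lowest level 8.4% were lower and 12% higher. The median standard error fell from 0.425 in the lowest group to 0.091 in the highest, so small changes could be called mainly in abundant genes. A smaller error eases calls in both directions, yet higher calls made up 19% and 17.9% of the 2 middle groups and 14.7% of the highest. Why lower calls were more frequent in abundant genes was not tested. By chromosome, 10.5% of the 485 genes tested on X were called higher, against 13.6% to 18.2% on the autosomes. Protein-coding genes made up 97.8% of higher, 97.2% of lower and 95.2% of all tested genes with an annotation.

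Ddx10 itself (chr9:53098635-53248053, minus strand, GRCm38) was read first. Its mRNA was at 1433 and 1509 untreated and 1159.7 and 889 at 1 day. Both treated values lay below both untreated ones, with replicate 2 lowest. The fitted change was -0.53 ± 0.11 (SE; limma, adjusted p = 0.00184), and it was -0.34 without 1 day replicate 2. Auxin acts on the tagged protein, so the mRNA neither checks the labels nor measures DDX10.

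Genes under p53 control rose together. In the list of p53 targets in cell-cycle arrest and feedback, 18 of 23 tested members were called higher and 0 lower, against 15.9% and 17.7% of all genes. For 21 members the treated values lay above without overlap, against 27.4% of all genes. The median log2 change was 0.82, and 15 members were stable. Targets that act in cell death gave 13 of 18 higher and 0 lower, with a median of 1.10 and 12 stable. Changes in that list ran from -1.25 to 3.79, and 1 member lay below the untreated values without overlap. The shares of all genes, with 29% below without overlap, apply to every list that follows.

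Mdm2 (chr10:117688875-117710758), the ubiquitin ligase that p53 induces against itself, was at 2475 and 2433 untreated and 8883 and 7086 at 1 day. The treated libraries were both far above the untreated ones, and their own gap was wider than that of the untreated pair. Its change was 1.69 ± 0.086 (SE; limma, adjusted p = 3.16e-08). Cdkn1a (chr17:29090976-29100727), the cyclin-dependent kinase inhibitor p21, was at 1523 and 1537 untreated and 5165 and 5747 at 1 day. All 4 of its values were close within their group, and the change was 1.83 ± 0.078 (SE; limma, adjusted p = 5.76e-09). Ccng1, encoding cyclin G1, rose from 4749.6 and 4589 to 13761 and 13406, a change of 1.54 ± 0.066 (SE; limma, adjusted p = 5.76e-09).

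Plk2, Ddit4 and Perp changed more than Mdm2, Cdkn1a and Ccng1, from lower untreated levels. Plk2 (chr13:110395046-110400844), a polo-like kinase, was at 620.3 and 361 untreated and 5261 and 4787 at 1 day. The untreated replicates were uneven, but the lowest treated value exceeded the highest untreated one by a wide margin, and the change was 3.40 ± 0.17 (SE; limma, adjusted p = 3.16e-08). Ddit4, an inhibitor of the growth kinase complex mTORC1, rose from 381 and 340.3 to 1779.9 and 1824 (2.32 ± 0.11 (SE; limma, adjusted p = 1.06e-08)). Perp (chr10:18845020-18857073), a membrane protein of p53-dependent death, was at 135 and 80.4 untreated and 1027 and 959.7 at 1 day. Again the 2 groups lay far apart, with a change of 3.24 ± 0.18 (SE; limma, adjusted p = 6.32e-08). Trp53i11, Ei24 and Pidd1, the last a death-domain protein, also rose, by 2.36, 1.02 and 1.22 on the log2 scale.

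Trp53, the gene for p53 itself, moved little beside its targets. It was at 9228 and 8372 untreated and 11069 and 10565 at 1 day, and the change was 0.30 ± 0.064 (SE; limma, adjusted p = 0.00271). In the list of p53-linked DNA repair genes, 5 of 12 were called higher and 1 lower, with a median of 0.28 (0.18 without 1 day replicate 2). Without overlap 7 members lay above and 2 below. Btg1, an anti-proliferative gene, rose by 1.59, Polk, a translesion polymerase, by 1.36, and Ercc5, a nuclease of excision repair, by 1.09. Polh, another translesion polymerase, was called lower (-0.50), and lost that call without untreated replicate 2 (-0.29), 1 day replicate 1 (-0.55) or 1 day replicate 2 (-0.46) and with library weights.

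ATF4 target genes fell as a group. ATF4 is a transcription factor that cells make under amino acid shortage and other stress, and its targets import and make amino acids and charge transfer RNAs. Among 35 tested members, 28 were called lower and 2 higher, 31 had no overlap below the untreated values, and the median change was -0.90. Stable calls numbered 22 lower and 1 higher.

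Chac1 (chr2:119351229-119354381), which degrades glutathione, was at 118 and 316 untreated and 8.50 and 6.39 at 1 day. Untreated replicate 2 was well above replicate 1, and both treated values were below the mean of 10 that the filter asks for. The change was -4.54 ± 0.42 (SE; limma, adjusted p = 3.13e-06). Nupr1, a stress-induced nuclear protein, was at 220.4 and 271 untreated and 8.17 and 22.7 at 1 day, a change of -4.06 ± 0.43 (SE; limma, adjusted p = 1.07e-05). Psat1 (chr19:15904678-15947337), of serine synthesis, was at 9066 and 8326 untreated and 2596 and 2160.0 at 1 day. Its groups lay far apart with close replicates, and the change was -1.87 ± 0.080 (SE; limma, adjusted p = 5.76e-09). Phgdh, the first enzyme of the same pathway, fell by 1.83 on the log2 scale, Shmt2, the mitochondrial serine hydroxymethyltransferase, fell by 1.20, and Nars, the asparaginyl-tRNA synthetase, fell by 1.23.

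Both higher calls in the ATF4 list were genes of the stress response itself. Ddit3 (chr10:127290774-127296288), encoding the transcription factor CHOP, was at 71.3 and 78.0 untreated and 226 and 345 at 1 day, with no overlap and a change of 1.89 ± 0.20 (SE; limma, adjusted p = 1.17e-05). Ppp1r15a, the phosphatase subunit GADD34, was at 922 and 782 untreated and 1104 and 1096 at 1 day, and the change was 0.37 ± 0.13 (SE; limma, adjusted p = 0.0456). Its call was lost without untreated replicate 2 (0.25), 1 day replicate 1 (0.37) or 1 day replicate 2 (0.38), and with the weights.

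Promoter sequence was available from RefSeq (GRCm38.p6) for 9825 of the 13355 tested genes, as windows of 250 bases before to 50 after a transcription start. The composite site bound by ATF4 and C/EBP factors was searched as TGATGNAA on both strands. It was present in 10 of 30 ATF4 list members with a window (33.33%), in 2.56% of all tested genes with a window and in 3.97% of all 32851 windows. The list was written from general knowledge of ATF4 targets, so its share was partly set in advance and is no result of these data. Among called genes the site was found in 3.51% of the lower and 2.06% of the higher ones. Of the 10 list members with a match, 9 were called lower, against 28 of 35 in the whole list, the exception being Atf3, whose change of 1.15 was not called. The stretches below show the match, in capitals, in 3 of the lower members, those with the largest stable changes and a match before the start. They end at or before the start site and lie at chr2:119350992-119351116 (plus strand, 185 bases between match and start), chr7:126625513-126625640 (minus strand, 102 bases) and chr11:120643784-120643911 (minus strand, 95 bases). Pycr1, an enzyme of proline synthesis, was named after its values were seen. It was at 462 and 505 untreated and 149 and 164 at 1 day, with no overlap and a change of -1.62 ± 0.24 (SE; limma, adjusted p = 0.000189). A match describes letters and does not show binding.
Chac1: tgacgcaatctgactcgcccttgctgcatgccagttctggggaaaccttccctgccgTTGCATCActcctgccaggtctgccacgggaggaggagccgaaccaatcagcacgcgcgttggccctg
Nupr1: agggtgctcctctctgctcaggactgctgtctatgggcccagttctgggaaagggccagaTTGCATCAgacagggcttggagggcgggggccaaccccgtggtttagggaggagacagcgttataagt
Pycr1: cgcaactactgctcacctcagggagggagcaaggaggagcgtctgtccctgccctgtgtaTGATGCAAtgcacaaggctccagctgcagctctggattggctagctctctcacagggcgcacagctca

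Ribosome assembly factors, the machinery to which DDX10 belongs, fell by small amounts in large numbers. In the list for the small subunit, 33 of 57 members were called lower and 2 higher, 40 lay below without overlap, and the median was -0.30. In the list for the large subunit, 27 of 57 were lower and 1 higher, with 44 below without overlap and a median of -0.25. Of these lower calls 17 and 13 were stable. With the 2 groups fitted alone only 5 and 4 were called lower. Over all genes tested 17.7% were called lower and 29% lay below without overlap. Among the 3339 genes of highest level 33.3% were called lower.

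Lyar, a nucleolar protein, had the largest of the named small-subunit changes. It was at 3716 and 3641 untreated and 2085 and 1854 at 1 day, with no overlap, a change of -0.90 ± 0.073 (SE; limma, adjusted p = 1.07e-06). Dimt1, which dimethylates 18S rRNA, was at 907 and 893 untreated and 585 and 609 at 1 day, a log2 change of -0.59. Pno1, a partner of the endonuclease that trims the end of 18S rRNA, was at 2939 and 2669 untreated and 2012 and 1888 at 1 day, a log2 change of -0.52. Pdcd11, a large scaffold of the processome, fell by 0.57. All 4 genes had lower values in both treated libraries. Against the trend, Rrp36 rose from 530.3 and 495 to 761 and 726, a change of 0.54 ± 0.087 (SE; limma, adjusted p = 0.000347). Pwp2, a core scaffold protein, was called higher at 0.19, but not without untreated replicate 1 (0.20), untreated replicate 2 (0.18) or 1 day replicate 1 (0.13), nor with the weights.

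For the large subunit, Gnl3, the nucleolar GTPase nucleostemin, was at 5008 and 4568 untreated and 3353 and 3177 at 1 day. Both treated values were lower by about the same amount, with a change of -0.55 ± 0.066 (SE; limma, adjusted p = 2.77e-05). Bop1, a partner in the PeBoW complex, fell by 0.55, Ddx18, a DEAD-box helicase like DDX10, fell by 0.51, and Rrp1 fell by 0.48. Mak16 was the one member called higher, from 2395 and 2385 to 3096 and 3017, a change of 0.35 ± 0.060 (SE; limma, adjusted p = 0.000495).

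RNA polymerases I and III, which transcribe ribosomal and transfer RNA genes, were mixed. Their call shares were near the 17.7% lower and 15.9% higher of all genes. Of 35 members, 7 were called lower (13 without 1 day replicate 1 and 1 with the 2 groups fitted alone) and 4 higher, with a median of -0.15 (-0.049 without 1 day replicate 2). Polr3g, a polymerase III subunit enriched in stem cells, was at 1707 and 1951 untreated and 1078 and 1045 at 1 day, a change of -0.78 ± 0.073 (SE; limma, adjusted p = 3.66e-06). Gtf3c1, a subunit of the transcription factor TFIIIC, went the other way, from 3169.6 and 2899 to 6314 and 4987 (0.89 ± 0.090 (SE; limma, adjusted p = 6.9e-06)). Those were the 2 stable calls of the list.

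Translation factors and the proteasome followed the ribosome factors in direction. Of all genes 17.7% were called lower and 15.9% higher, and of the 3339 genes of highest level 33.3% were called lower. Among translation factors 22 of 41 were called lower and 2 higher, with a median of -0.30 and 16 stable lower calls (5 lower with the 2 groups fitted alone). Eif4a1 (chr11:69666936-69672423), the helicase of the cap-binding complex, was at 41693 and 42961 untreated and 31576 and 31999 at 1 day. The replicates were close and the groups apart, with a change of -0.41 ± 0.050 (SE; limma, adjusted p = 3.51e-05). Eif3d, Eif3c and Eif3h, which encode subunits of the initiation factor eIF3, had log2 changes of -0.61, -0.54 and -0.54, all called. Eif5, which drives GTP hydrolysis at the start codon, rose from 6152 and 6558 to 9876 and 7985 (0.48 ± 0.091 (SE; limma, adjusted p = 0.00108)). In the proteasome list 20 of 33 were lower and 0 higher, with a median of -0.31 and 13 stable lower calls (3 lower with the 2 groups fitted alone). Psmd1, the largest subunit of the regulatory particle, was at 9314 and 9119 untreated and 6484 and 5485 at 1 day, a change of -0.63 ± 0.070 (SE; limma, adjusted p = 1.56e-05), and Psma7, a core subunit, fell by 0.56.

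DNA replication genes fell almost throughout. Of 44 tested members of the list for replication and entry into S phase, 37 were called lower and 0 higher, 41 lay below the untreated values without overlap, and 27 lower calls were stable. The median change was -0.55, and 17 members were lower with the 2 groups fitted alone. Ccne1 (chr7:38097984-38107534), the cyclin E gene that drives entry into S phase, was at 4139.8 and 3734 untreated and 1745 and 1441 at 1 day. Treated libraries were below the untreated ones by a margin far beyond either gap between replicates, and the change was -1.31 ± 0.086 (SE; limma, adjusted p = 1.78e-07). Pcna, the clamp of the replicative polymerases, was at 11145 and 11075 untreated and 5491 and 5229 at 1 day, a change of -1.05 ± 0.061 (SE; limma, adjusted p = 8.78e-08). Cdc6, which loads the MCM helicase, was at 2325 and 2289.5 untreated and 1108 and 973 at 1 day, a change of -1.15 ± 0.088 (SE; limma, adjusted p = 6.49e-07). All 3 of these genes were lower in both treated libraries. Uhrf1, which links DNA methylation to replication, fell by 1.03.

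Mitotic genes fell too, with a larger share called lower than the 17.7% of all genes or the 33.3% of the 3339 genes of highest level. In the list for G2 and mitosis 23 of 40 members were called lower and 2 higher, with 26 below without overlap and a median of -0.28 (-0.18 without untreated replicate 1). Of the lower calls 13 were stable, and with the 2 groups fitted alone only 2 were made. Plk1, the main mitotic kinase, was at 4415 and 3782 untreated and 2479 and 2454 at 1 day, a change of -0.73 ± 0.082 (SE; limma, adjusted p = 1.65e-05). Cdk1, the kinase that starts mitosis, fell by 0.67 and Kif20a, a kinesin of cytokinesis, fell by 0.44. Psrc1, a spindle protein and known p53 target, rose from 2892 and 2695 to 5947 and 6307 (1.13 ± 0.068 (SE; limma, adjusted p = 1.06e-07)). Pttg1, securin, was the other higher call (0.77), lost without untreated replicate 2 (0.26), 1 day replicate 1 (0.83) or 1 day replicate 2 (0.71) and with the weights. Without untreated replicate 1 it was 1.29.

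The site of E2F factors, which turn on replication genes, was searched in the same promoter windows as TTTCCCGC or TTTGGCGC on both strands. It was present in 11 of 35 replication list members with a window (31.43%), in 3.5% of all tested genes with a window and in 1.56% of all windows. That list too was written from general knowledge, so its share was partly set in advance. The site was in 5.66% of the genes called lower and 2.25% of those called higher. All 11 list members with a match were called lower, in a list of which 37 of 44 were lower in all. The 3 shown are those with the largest stable changes whose match, in capitals, lies before a RefSeq start. They lie at chr11:98907953-98908080 (plus strand, 130 bases between match and start), chr1:128359748-128359875 (minus strand, 102 bases) and chrX:93632226-93632353 (minus strand, 130 bases). The Cdc6 stretch lies inside the gene span of GENCODE M21, which begins at chr11:98907801. Mcm6 encodes a subunit of the replicative helicase and Pola1 the catalytic subunit of the priming polymerase, and both fell, with log2 changes of -0.68 and -0.61. Both were named after their values were seen.
Cdc6: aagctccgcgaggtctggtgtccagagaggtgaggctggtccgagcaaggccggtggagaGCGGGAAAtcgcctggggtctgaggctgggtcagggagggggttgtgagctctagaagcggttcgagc
Mcm6: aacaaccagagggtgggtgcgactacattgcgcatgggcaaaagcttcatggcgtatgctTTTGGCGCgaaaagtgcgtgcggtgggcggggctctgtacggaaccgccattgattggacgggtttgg
Pola1: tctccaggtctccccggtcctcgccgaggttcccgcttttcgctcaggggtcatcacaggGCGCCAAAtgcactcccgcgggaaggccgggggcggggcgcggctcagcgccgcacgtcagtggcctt

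Genes of sterol and fatty acid synthesis, most of them under the transcription factor SREBP2 or SREBP1, fell without exception among those called. In that list 22 of 32 members were called lower and 0 higher, 27 lay below without overlap, 17 were stable, and the median was -0.62. Hmgcs1 (chr13:119690379-119708260), the enzyme that makes HMG-CoA for cholesterol synthesis, was at 3411 and 3833 untreated and 2185 and 2189 at 1 day. The 2 treated values were nearly identical and well below both untreated values, with a change of -0.73 ± 0.067 (SE; limma, adjusted p = 3.03e-06). Idi1, an isomerase of the same pathway, was at 2734 and 3299.8 untreated and 1037 and 794 at 1 day, a change of -1.73 ± 0.11 (SE; limma, adjusted p = 1.78e-07). Scd1, a fatty acid desaturase, fell by 0.92.

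The sterol regulatory element, searched as TCACNCCAC on both strands, was found in 1 of 22 members with a window (4.55%), in 1.46% of tested genes with a window and in 1.24% of all windows. That member was Hmgcs1, shown with the match in capitals (plus strand, chr13:119690154-119690282, 128 bases between match and start). No match in the other windows says only that these letters are not there.
Hmgcs1: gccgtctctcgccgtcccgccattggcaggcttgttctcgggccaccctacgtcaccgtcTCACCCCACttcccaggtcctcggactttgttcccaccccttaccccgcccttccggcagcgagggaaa

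Glycolytic enzymes fell as well. The list of glycolysis and hypoxia genes had 17 of 30 members called lower and 2 higher, 12 lower calls stable, and a median of -0.55. Ldha (chr7:46841475-46855627), which turns pyruvate into lactate, was at 18500.0 and 22516 untreated and 7964 and 7005 at 1 day. Untreated replicate 2 was the highest and the treated pair far below, with a change of -1.45 ± 0.087 (SE; limma, adjusted p = 1.06e-07). Eno1, enolase, was at 42727 and 47979 untreated and 20992 and 19783 at 1 day, a change of -1.15 ± 0.070 (SE; limma, adjusted p = 1.1e-07). Slc16a3, the lactate exporter MCT4, was at 359 and 973 untreated and 31.5 and 51.6 at 1 day, a change of -3.84 ± 0.37 (SE; limma, adjusted p = 4.99e-06). Pfkp, a phosphofructokinase, fell by 1.53 and Pgam1, phosphoglycerate mutase, fell by 0.91. Slc2a3, the glucose transporter GLUT3, rose from 19219 and 20709 to 25938 and 32202 (0.53 ± 0.080 (SE; limma, adjusted p = 0.000185)). Hk1, a hexokinase, was called higher (0.42) but not without untreated replicate 2 (0.23) or with the weights.

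Lysosomal genes rose. Of 35 tested members, 20 were called higher and 1 lower, 23 lay above without overlap, and 12 higher calls were stable. With the 2 groups fitted alone 10 were higher. The median was 0.42, 0.63 without 1 day replicate 1 and 0.25 without 1 day replicate 2. Man2b1 (chr8:85083270-85098282), a lysosomal mannosidase, was at 559 and 580.4 untreated and 1451 and 1443 at 1 day. Both pairs were tight and far apart, with a change of 1.34 ± 0.081 (SE; limma, adjusted p = 1.1e-07). Tpp1, a peptidase, was at 890.2 and 826 untreated and 1627 and 2109 at 1 day, a change of 1.11 ± 0.11 (SE; limma, adjusted p = 5.07e-06). Lamp2, a membrane protein of the lysosome, was at 987 and 878 untreated and 1795 and 1962 at 1 day, a change of 1.01 ± 0.094 (SE; limma, adjusted p = 3.34e-06). Psap, the precursor of the saposins, rose by 0.77. Manba, the beta-mannosidase, was the one lower call, from 2669 and 2864 to 1704 and 1271 (-0.91 ± 0.15 (SE; limma, adjusted p = 0.000325)).

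Nuclear genes of the respiratory chain did not move together. Of 42 members 7 were called lower and 2 higher, both shares below the 17.7% and 15.9% of all genes, and the median was 0.0074. The lower count was 3 without untreated replicate 1 and 4 without 1 day replicate 1, and the median ranged from -0.098 without 1 day replicate 2 to 0.10 without 1 day replicate 1. The stable calls were Sdhd, a membrane anchor of complex II, which fell by 0.50, and Ndufb9, of complex I, which rose by 0.65.

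**Figure D3:**
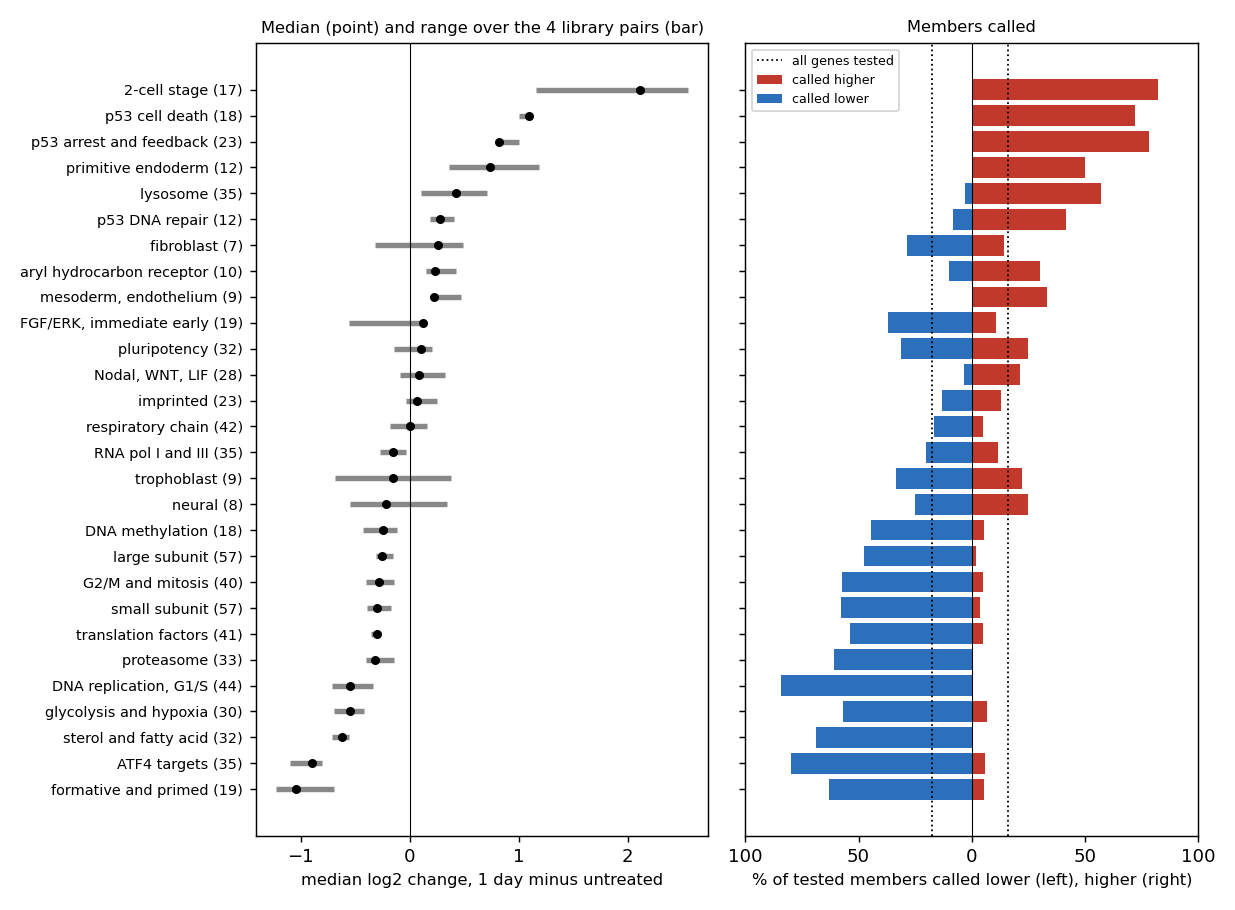
The 28 gene lists, with the number of tested members in parentheses: left, median log2 change at 1 day minus untreated (points) and its range when each of the 4 pairings of 1 treated with 1 untreated library is used (bars). Right, the percent of members called lower (to the left) and higher (to the right), with dotted lines at the 17.7% and 15.9% of all genes tested, so that the p53, 2-cell and lysosome lists stand right and the replication, ATF4 and sterol lists left of those lines.

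Markers of embryonic stem cells were high in all 4 libraries, and the 8 markers used to check the label did not move together. Pou5f1, Zfp42 and Utf1 fell, and Nanog, Sox2, Esrrb, Dppa5a and Tdgf1 were not called. Over the list of 32 pluripotency genes 10 were called lower and 8 higher. The median was 0.10, -0.067 without untreated replicate 2 and -0.0009 without 1 day replicate 1. Of the stable calls 8 were lower and 1 higher. The summed level of the list was 242004 and 220329 in the untreated libraries and 223686 and 212410.5 at 1 day.

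Pou5f1 (chr17:35506018-35510772), encoding OCT4, was at 23171 and 22339 untreated and 16302 and 19111 at 1 day. Both treated values were below both untreated ones and differed from each other more than the untreated pair did. The change was -0.37 ± 0.074 (SE; limma, adjusted p = 0.00182). Nanog was at 15332 and 14325 untreated and 17389 and 15375 at 1 day, with the lower treated value just above the higher untreated one, and its change was 0.14 ± 0.063 (SE; limma, adjusted p = 0.0988), which misses the threshold. It was 0.23 without 1 day replicate 2 and 0.17 with upper-quartile scaling, and was called in both cases. Sox2, at 8893 and 9555 untreated and 10315 and 9448 at 1 day, and Esrrb, at 19172 and 15077 untreated and 18493 and 14559 at 1 day, overlapped between groups, with changes of 0.099 and -0.051.

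Utf1 (chr7:139943789-139945112), a chromatin protein of undifferentiated cells, was at 5013 and 4489.7 untreated and 1538 and 1368 at 1 day. The groups lay far apart, and the change was -1.71 ± 0.085 (SE; limma, adjusted p = 2.65e-08). Lin28a, which blocks maturation of let-7 microRNAs, was at 2794 and 3757 untreated and 1138 and 1013 at 1 day, a change of -1.59 ± 0.11 (SE; limma, adjusted p = 3.21e-07). Nr0b1, encoding the nuclear receptor DAX1, fell by 1.01 and Zfp42, encoding REX1, fell by 0.40. Klf4 (chr4:55527143-55532466), a naive-state factor downstream of LIF, was at 3379.8 and 1915 untreated and 5371 and 4311 at 1 day. Its untreated replicates were uneven, with replicate 1 closer to the treated values, and the change was 0.92 ± 0.18 (SE; limma, adjusted p = 0.00169), or 0.51 without untreated replicate 2. Fgf4, a growth factor made by naive cells, was called higher at 0.28, a call not made with library weights. Dppa3, encoding STELLA, was at 54.5 and 14.2 untreated and 177 and 89.6 at 1 day and was called higher at 2.13. That call was lost without untreated replicate 2 (1.19) or 1 day replicate 1 (1.64) and with the weights.

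Genes of the formative and primed states, through which cells leave naive pluripotency, were mostly lower. Among 19 tested members 12 were called lower and 1 higher, 14 lay below without overlap, and the median was -1.04. With the 2 groups fitted alone 5 were lower. Etv4 (chr11:101769742-101785371), a transcription factor induced by FGF signalling, was at 2428 and 1685 untreated and 477 and 333 at 1 day. Both treated values were several-fold below the lower untreated value, with a change of -2.34 ± 0.16 (SE; limma, adjusted p = 2.64e-07). Dnmt3b (chr2:153649450-153687730), a de novo DNA methyltransferase, was at 2732 and 3254 untreated and 1514 and 1393 at 1 day, a change of -1.04 ± 0.084 (SE; limma, adjusted p = 1.04e-06). Dnmt3l, its cofactor, was at 3614 and 5419.8 untreated and 831 and 2052 at 1 day, with treated replicates far apart. Its change was -1.76 ± 0.28 (SE; limma, adjusted p = 0.000318), or -1.11 without 1 day replicate 1. Tcf15, a factor of the formative state, fell by 1.70. Nodal, a TGF-beta ligand, was the one member called higher, from 1157 and 1187 to 2053 and 2508 (0.95 ± 0.098 (SE; limma, adjusted p = 7.8e-06)).

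Regulators of DNA methylation overlapped with that list in Dnmt3a, Dnmt3b and Dnmt3l. Of 18 members 8 were called lower and 1 higher, against 17.7% and 15.9% of all genes, with a median of -0.24. Without 1 day replicate 1 the lower calls were 13 and the median -0.39, and without 1 day replicate 2 the median was -0.16. Ehmt2, the histone H3 lysine 9 methyltransferase G9a, was at 2082 and 2273 untreated and 1337 and 1503 at 1 day, a change of -0.62 ± 0.098 (SE; limma, adjusted p = 0.000304). Imprinted genes, expressed from 1 parental allele, gave 3 higher and 3 lower calls among 23, near the 15.9% and 17.7% of all genes. The higher count was 6 without untreated replicate 1, 1 without untreated replicate 2 and 5 without 1 day replicate 1. Mest was at 4560.3 and 6564 untreated and 2897 and 2429.7 at 1 day, a change of -1.04 ± 0.13 (SE; limma, adjusted p = 4.88e-05), Nnat fell by 1.67, and Igf2r rose by 0.72.

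Genes expressed at the 2-cell stage had the highest median of the lists, and the largest disagreement between library pairs. Of 17 tested members 14 were called higher and 0 lower, 9 higher calls were stable, 9 were made with the 2 groups fitted alone, and the median of 2.11 ranged from 1.16 to 2.55 over the 4 pairings of libraries. Zscan4c (chr7:11005745-11010547), of a zinc finger family that marks 2-cell-like cells, was at 228 and 117 untreated and 488 and 623 at 1 day. Untreated replicate 1 was nearer to the treated values than replicate 2, and the groups did not overlap. The change was 1.75 ± 0.26 (SE; limma, adjusted p = 0.000161). Zscan4d was at 156 and 54.2 untreated and 236 and 322 at 1 day, a change of 1.57 ± 0.35 (SE; limma, adjusted p = 0.00348), or 0.82 without untreated replicate 2. Zscan4f rose by 2.11, Zscan4b by 2.03 and Usp17lb, a deubiquitinase of a multicopy family, by 2.23. Zscan4 and Usp17l genes have near-identical copies among which the counting could split reads, so their single values are uncertain and the members are not independent.

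Signalling genes were read in 2 lists, and the difference between them was not tested. In the list of FGF and ERK targets with immediate early genes, 7 of 19 were called lower and 2 higher. Over all genes these shares were 17.7% and 15.9%. The list median was 0.12, -0.19 without untreated replicate 2 and -0.34 without 1 day replicate 1. Spry4, a feedback inhibitor of FGF signalling, was at 748 and 584 untreated and 52.7 and 37.0 at 1 day. Both treated values were a small fraction of either untreated value, and the change was -3.87 ± 0.23 (SE; limma, adjusted p = 1.1e-07). Etv1, a factor of the same family as Etv4, fell by 1.06 and Spred1, another inhibitor of the pathway, fell by 0.89. Jun was at 176 and 96.5 untreated and 411 and 386 at 1 day, a change of 1.60 ± 0.22 (SE; limma, adjusted p = 9.48e-05), and Fos at 168 and 75.0 untreated and 603 and 263 at 1 day, a change of 1.82 ± 0.35 (SE; limma, adjusted p = 0.00139). Both immediate early genes were higher in both treated libraries. Egr1, of the same class, was at 30.3 and 16.2 untreated and 611 and 16.4 at 1 day, so that 1 treated library was high and the other was not. Its change of 2.16 was not called, and was 4.72 and called without 1 day replicate 2.

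Of 28 genes of the Nodal, WNT and LIF pathways 6 were called higher and 1 lower, against 15.9% and 17.7% of all genes. Nodal was the one stable call. The higher count was 11 without untreated replicate 1, 3 without untreated replicate 2 and 4 without 1 day replicate 2. Their median of 0.086 lay between 0.0043 without untreated replicate 2 and 0.20 without 1 day replicate 2. Id3, a target of BMP signalling, was called lower at -1.04, from 863 and 699 to 614 and 232. The call was lost without untreated replicate 1 (-0.89) or 1 day replicate 2 (-0.34) and with the weights, and the change was -1.74 without 1 day replicate 1.

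Targets of the aryl hydrocarbon receptor, which indole compounds can activate, were read because auxin is an indole. Cyp1a1 (chr9:57687928-57703824), its best known target and a cytochrome P450, was at 74.5 and 49.8 untreated and 502 and 498 at 1 day. The treated pair was nearly equal and far above the untreated pair, with a change of 3.02 ± 0.25 (SE; limma, adjusted p = 1.25e-06). Cyp1b1, a related enzyme, was at 13.6 and 14.2 untreated and 144 and 67.7 at 1 day, a change of 2.74 ± 0.27 (SE; limma, adjusted p = 5.42e-06). Over the list 3 of 10 were called higher and 1 lower, against 15.9% and 17.7% of all genes. The median was 0.23, 0.12 without untreated replicate 1 and 0.36 without untreated replicate 2. The other calls were Aldh3a1 (1.16), lost without untreated replicate 2 (0.64), 1 day replicate 1 (1.15) or 1 day replicate 2 (1.16), and the lower Tiparp (-0.74). The Tiparp call was lost without untreated replicate 2 (-0.51) or 1 day replicate 2 (-0.37), and its change was -1.11 without 1 day replicate 1.

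**Figure D4:**
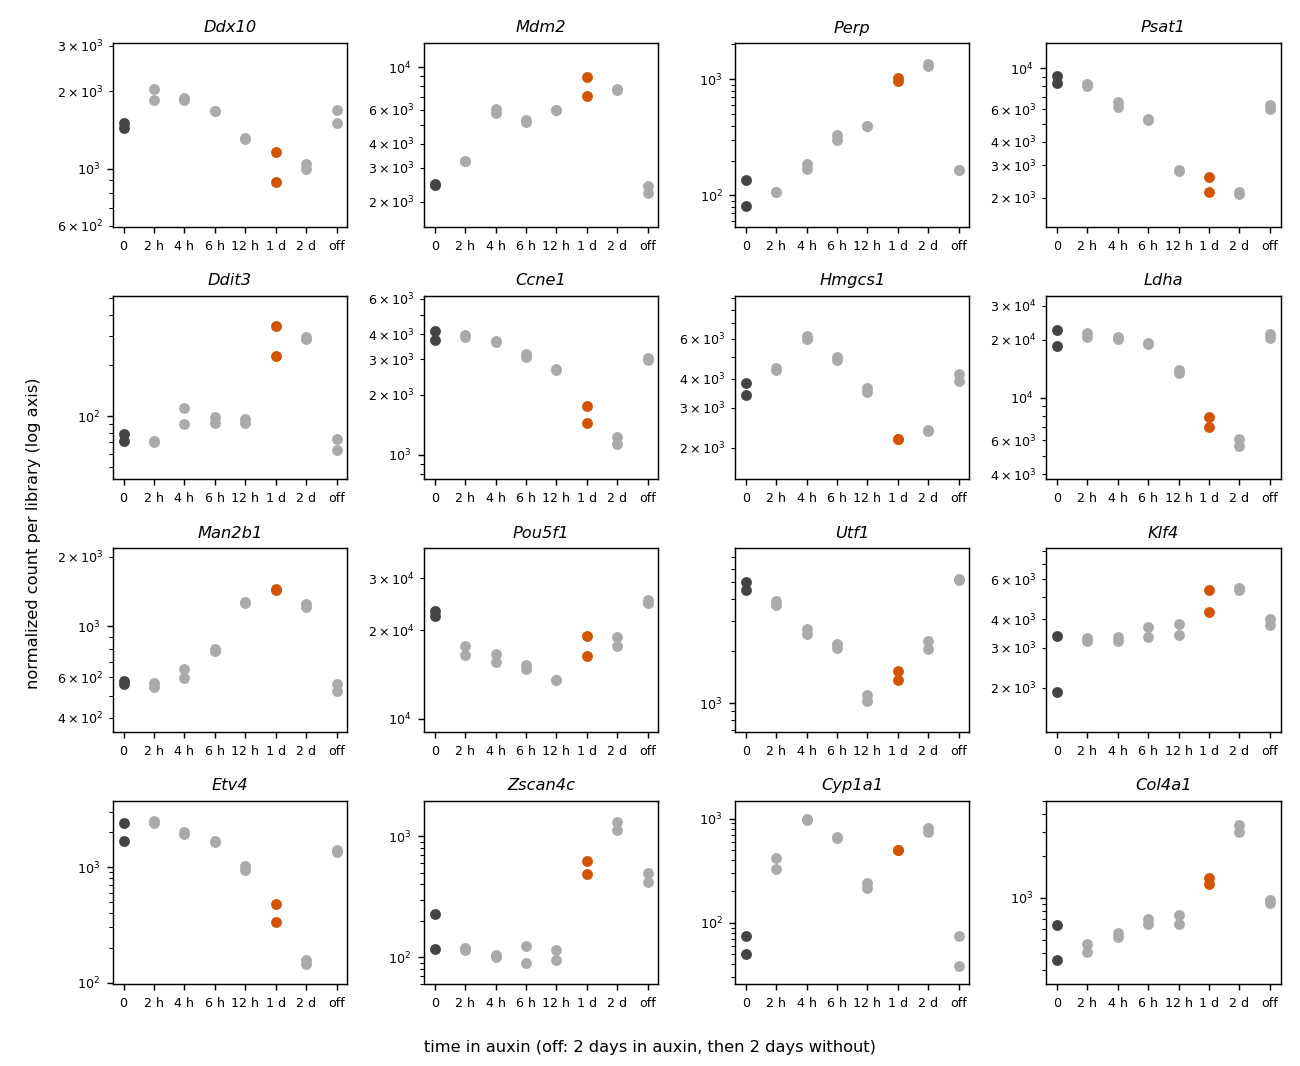
Normalized count (y axis, log scale) of 16 genes in each of the 16 libraries, by time in auxin (x axis), with untreated libraries in black, 1 day in orange and the others in grey. Mdm2, Perp, Man2b1 and Cyp1a1 sit above their untreated values at 1 day and Psat1, Ccne1, Ldha and Etv4 below them, while the black and orange pairs are often wider apart than the grey ones.

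Markers of other cell types were checked by list, here and in the next paragraph, against 15.9% of all genes called higher and 17.7% lower. Primitive endoderm, the extraembryonic lineage nearest to naive cells, had 6 of 12 tested members called higher and 0 lower, with a median of 0.73. With the 2 groups fitted alone 1 was higher. The summed level of the 15 markers in the table, of 18 listed, was 23739 and 18951 untreated and 23933 and 33382 at 1 day. The lower treated value was just above the higher untreated one, so only 1 day replicate 2 stood clearly apart. Col4a1 (chr8:11198423-11312826), a basement membrane collagen, was at 639.7 and 356 untreated and 1399 and 1269 at 1 day. Untreated replicate 1 was the nearer to the treated pair, and the change was 1.48 ± 0.19 (SE; limma, adjusted p = 5.99e-05). Lama1, a laminin chain, was at 1213 and 427 untreated and 2036 and 2015 at 1 day. Its change was 1.49 ± 0.30 (SE; limma, adjusted p = 0.00178), 2.24 without untreated replicate 1 and 0.74 without untreated replicate 2. Col4a2, which shares a bidirectional promoter with Col4a1, rose by 1.43 (0.76 without untreated replicate 2). Sparc rose by 0.77, 1.17 without untreated replicate 1 and 0.37 without untreated replicate 2. The defining factor Gata4 was not called, and Sox17 and Sox7 were below the filter. The part of such cells in the results was not tested.

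Trophoblast markers gave 2 higher and 3 lower calls among 9, neural markers 2 and 2 among 8, mesoderm and endothelium 3 and 0 among 9, and fibroblasts 1 and 2 among 7. Their median changes were -0.15, -0.21, 0.22 and 0.26. Their summed levels ran from 2529.6 and 2406 untreated to 2794 and 2425 at 1 day for trophoblast, from 9675 and 8216 to 6459.6 and 5151 for neural cells and from 1884 and 1846 to 2725 and 2575 for mesoderm and endothelium. The fibroblast sum went from 33328 and 30474 to 51599.9 and 49317, most of it Fn1, fibronectin, at 26348 and 27044 untreated and 47094 and 46246 at 1 day. Neurod1, a neuronal transcription factor, was at 21.1 and 23.4 untreated and 174 and 153 at 1 day, a change of 2.82 ± 0.23 (SE; limma, adjusted p = 1.26e-06), while Stmn2 and Tubb3, both of neuronal microtubules, were called lower (-0.95 and -0.52). The Tubb3 call was lost without untreated replicate 1 (-0.24) or 1 day replicate 2 (-0.28) and with the weights, and its change was -0.81 without untreated replicate 2. In the mesoderm and endothelium list, both treated sums lay above both untreated ones. Its one stable call was Pecam1, a cell adhesion molecule, from 1717 and 1728 to 2479.8 and 2321 (log2 change 0.48). Gsc, the homeobox gene goosecoid, was called higher at 2.65, lost without untreated replicate 2 (0.81), 1 day replicate 1 (2.55) or 1 day replicate 2 (2.76) and with the weights, and was 4.49 without untreated replicate 1. Krt8 and Tead4 of the trophoblast list fell, with log2 changes of -1.04 and -0.90, Tfap2c rose by 1.07, and Thy1, a fibroblast surface marker, fell by 2.58. Elf5, Hand1, Mesp1, Cdh5, Col1a2, Col3a1 and Postn were not analysed here.

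The largest increases among genes with a mean of at least 50 were in genes with low untreated levels. That mean was taken over the 4 compared libraries, so a gene with low untreated values passed it through its 1 day values. The pattern was thus partly set by the filter and the ranking. Anxa8 (chr14:34085981-34100571), an annexin, was at 24.9 and 11.2 untreated and 339 and 431 at 1 day, a change of 4.43 ± 0.34 (SE; limma, adjusted p = 6.49e-07). Serpine2 (chr1:79794197-79861180), a secreted protease inhibitor, was at 131 and 74.2 untreated and 1422 and 1244 at 1 day, a change of 3.74 ± 0.22 (SE; limma, adjusted p = 9.47e-08). Tap1 (chr17:34187553-34197225), the peptide transporter of antigen presentation, was at 23.7 and 18.3 untreated and 344 and 298 at 1 day, a change of 3.88 ± 0.31 (SE; limma, adjusted p = 9.4e-07). In these 3 genes both treated libraries were several-fold above both untreated ones. Ms4a10 rose by 4.13, Ahnak2 by 3.52 and Cpz, a carboxypeptidase, by 3.51. Aox4, an aldehyde oxidase, was at 3.45 and 17.9 untreated and 205 and 67.0 at 1 day, with both pairs uneven and a change of 3.69 ± 0.59 (SE; limma, adjusted p = 0.000329), and Casp14, a caspase of skin, rose by 3.58.

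Some of the largest increases rested on uneven values. Matn1, a cartilage matrix protein, was at 47.2 and 5.09 untreated and 419.7 and 293 at 1 day, a change of 4.36, or 2.87 without untreated replicate 2. Snx20 was at 31.1 and 1.02 untreated and 138 and 114 at 1 day, a change of 3.97, 5.97 without untreated replicate 1 and 1.98 without untreated replicate 2. In both genes untreated replicate 1 was the higher of its pair. Psd4 was at 13.6 and 4.52 untreated and 43.8 and 245 at 1 day, a change of 3.55 (2.32 without 1 day replicate 2), and was not called with the weights. Cacna1s, a calcium channel subunit, was at 42.9 and 0.528 untreated and 118 and 78.0 at 1 day and was called at 3.56. Without untreated replicate 2 the change was 1.14, without 1 day replicate 1 3.27 and without 1 day replicate 2 3.86, in each case not called, and without untreated replicate 1 it was 5.99.

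Among the largest decreases beside Chac1, Nupr1, Spry4 and Slc16a3 were genes with a clear untreated level. For genes low at 1 day the filter on the mean required such a level. Myrf (chr19:10208272-10240748), a membrane-bound transcription factor known from myelin, was at 282 and 763 untreated and 16.1 and 14.5 at 1 day, a change of -4.84 ± 0.36 (SE; limma, adjusted p = 5.03e-07). Enox1 (chr14:77156763-77721760), a cell-surface oxidase, was at 684 and 903 untreated and 69.6 and 58.8 at 1 day, a change of -3.60 ± 0.15 (SE; limma, adjusted p = 5.76e-09). Aire, the autoimmune regulator, which embryonic stem cells also express, was at 177 and 372 untreated and 9.91 and 19.5 at 1 day, a change of -4.11 ± 0.32 (SE; limma, adjusted p = 8.62e-07). The untreated values of Myrf and Aire were uneven, with replicate 2 the higher, and the treated values were low in both libraries. Itga9, an integrin, fell by 2.92, Tgm3, a transglutaminase, fell by 2.96, Ptgs1, cyclooxygenase 1, fell by 3.28, and Fgf17 fell by 2.91. Miat, a long noncoding RNA, was at 53.2 and 273 untreated and 10.7 and 10.6 at 1 day, a change of -3.39 (-2.22 without untreated replicate 2), not called with the weights.

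Single genes showed how far replicates could part. Among genes with a mean of at least 50, the 3 with the widest untreated gap were on X or in multicopy families: Xlr3b was at 541 and 5.11 untreated and 477 and 241 at 1 day, Xlr4a at 185 and 1.45 untreated and 128 and 87.9 at 1 day and Pramel6 at 123 and 2.65 untreated and 124 and 142 at 1 day. In each of these untreated replicate 1 resembled the treated libraries and replicate 2 was near the floor. None was called, and each was without untreated replicate 1, with changes of 5.80, 5.45 and 5.20. At 1 day the widest gaps were in Mrm1, at 175 and 136 untreated and 3343 and 205 at 1 day, Mamdc4, at 118 and 96.4 untreated and 109 and 4.02 at 1 day, and Egr1. Mrm1, a mitochondrial rRNA methyltransferase, was called at 2.42, a call lost without untreated replicate 1 (2.60), untreated replicate 2 (2.24) or 1 day replicate 1 (0.41), and its change was 4.43 without 1 day replicate 2. Mamdc4 was not called (-2.19), and was without 1 day replicate 1 (-4.42). Over all called genes, untreated replicate 1 was the one nearer to the treated level for 2662 of 4484 (59.4%). For higher calls its value was above replicate 2 in 67.4%, against 53.3% of all genes, and for lower calls below it in 52.1%, against 46.7%.

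The next time point, 2 days in auxin, was set against 1 day to see which genes were still moving. This comparison uses the same 1 day libraries as the first, so values are given side by side. Called higher at 2 days than at 1 day were 210 genes (1.57%) and lower 544 (4.07%). Without 1 day replicate 1 these were 707 and 819, without 2 days replicate 1 43 and 195, and without 2 days replicate 2 30 and 176. Fitted alone, the 2 groups gave no call by limma, with 1799 genes at an unadjusted p under 0.05. Cell-cycle genes fell further: 27 of 40 mitotic and 23 of 44 replication genes were called lower at 2 days than at 1 day. Ccne1 was at 1231 and 1133 at 2 days, a further change of -0.42 ± 0.086 (SE; limma, adjusted p = 0.0117), and Plk1 at 1899.7 and 1649, a further change of -0.48 ± 0.082 (SE; limma, adjusted p = 0.00431). Both genes were below their 1 day values in both libraries. Etv4 was at 156 and 144, a further change of -1.40 ± 0.16 (SE; limma, adjusted p = 0.000495). Col4a1 reached 3011 and 3338, a further change of 1.25 ± 0.19 (SE; limma, adjusted p = 0.00226), and Zscan4c 1301 and 1131, a further change of 1.14 ± 0.26 (SE; limma, adjusted p = 0.0209). Both were above both 1 day values. Utf1 was at 2278 and 2061, a change of 0.58 ± 0.085 (SE; limma, adjusted p = 0.0016) from 1 day, opposite in direction to its change from untreated to 1 day. Of the p53 targets in arrest and feedback 3 of 23 were called lower and 0 higher at 2 days than at 1 day, and of those in cell death 1 of 18 lower and 0 higher. Mdm2 was at 7719.7 and 7623 and Cdkn1a at 5492 and 5486, with changes of -0.049 and 0.011 that were not called, whereas Ccng1 was called lower at -0.26.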

How the data were processed

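RNA from 16 libraries of 1 Ddx10 degron line was sequenced as mRNA, per the labels' protocols. Each deposited value is a signal: a gene's read count that the authors scaled by a factor per library, as judged from the table's name and values. Per the submitters' processing notes, Trim Galore, STAR, RSEM and DESeq2 were used with build mm10, the same assembly as GRCm38. Tool versions, annotation and filter: not given in the sources used here. Depth was estimated from the step of low values in 1884 genes with 1 transcript, of which 71.4% to 98.9% per library lay within 0.1 of a whole read, against 36.5% to 45.3% of other genes. No count test was run.

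Genes with a mean of at least 10 were tested on log2(value + 1) with limma 3.58.1 in R 4.3.3 (a mean per group, trended variance, 8 residual degrees of freedom) and Benjamini-Hochberg adjustment over 13355 genes. A change on this scale understates low genes. In a simulation of 13355 genes, 22.4%, 67.2% and 83.3% of those shifted by 0.5, 1 and 2 on the log2 scale were called. It gave 124 calls, 9 of them false, far fewer calls than the 4484 in the data. A single SD per gene, pooled over all groups, was used for every library. The wider spread within the untreated and 1 day groups was thus not represented. The simulated shares therefore need not hold for the real comparison. Replicate numbers did not pair the libraries: the correlation of replicate differences between untreated and 1 day was 0.004, and over all pairs of groups it ran from -0.061 to 0.066.

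Named genes were 13 fixed genes, the 12 largest changes in each direction (mean of at least 50, no overlap), the 4 smallest p-values of each of 28 lists with up to 2 members against the trend, and the 3 widest replicate gaps per group. The members and lists were chosen with earlier results of these data known, and no list was tested. A name shared by 2 rows was left out of its list. Some named genes are not reported here. Gene positions are from GENCODE M21, which matched 14467 of 14552 identifiers. Alternatives were other pseudocounts, filters and scalings, a replicate block, the 2 groups alone, library weights, leaving out each library and, added after seeing the data, a fit without the 2 to 12 h libraries and the stable class.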

Additional observations from a re-analysis of the deposited data

How the results depend on the processing

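Under another pseudocount (0.5 or 5), another filter (none, or a mean of 50) or either rescaling, the count of called genes stayed between 4107 and 4550, and 4019 to 4466 of the 4484 calls were shared. With the 2 groups fitted alone calls were 682 higher and 537 lower, and 60 and 106 over the members of all lists. The loss was uneven: p53 arrest targets went from 18 to 13 higher, ATF4 targets from 28 to 20 lower and sterol genes from 22 to 16, whereas mitotic genes went from 23 to 2 and proteasome genes from 20 to 3. Lower pluripotency, FGF and ERK, DNA methylation and respiratory chain calls went to 5, 4, 4 and 0, and higher p53 repair, Nodal, WNT and LIF, and imprinted calls to 3, 2 and 1. With library weights 873 genes were higher and 1001 lower, and 78 and 188 over the members of all lists. Without the 2 to 12 h libraries 1474 genes were lower. For 2 days against 1 day, the groups alone gave 0 and 0 and library weights 40 higher and 202 lower. The weights carry the wider spread measured within the untreated and 1 day groups, and the fits of fewer libraries have fewer degrees of freedom. The main fit pools those groups with narrower ones, so its standard errors tend to be too small for them. Leaving out 1 library gave 1676 to 2279 higher and 1990 to 2605 lower genes at 1 day. For 2 days against 1 day it gave 30 to 707 higher and 176 to 819 lower.

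With the replicate block 4365 genes were called, 4299 of them shared, and no count moved by over 1.5 times. The number is not shown to pair libraries. Ppp1r15a was no longer called under it.

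List medians near 0 changed sign. Leaving out 1 library, they ran from -0.067 to 0.14 for pluripotency (-0.0009 without 1 day replicate 1), from -0.34 to 0.18 for FGF and ERK, from -0.51 to 0.21 for trophoblast, from -0.41 to 0.033 for neural and from -0.24 to 0.17 for fibroblast markers (with all libraries 0.26). For imprinted genes they ran from -0.033 to 0.12 around 0.068. The fibroblast median was -0.062 with a mean of at least 50, and the trophoblast median 0.039 with no filter. The cause was not tested. With 2 uneven libraries per group and a median standard error of 0.158, the absence of a call does not show that a gene was unchanged.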

Other observations

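After 2 days in auxin and 2 days without it, several of the genes described above stood near their untreated values, given here as values without a test. Cyp1a1 was at 75.1 and 38.4 against 74.5 and 49.8 untreated and 502 and 498 at 1 day. Mdm2 was at 2421 and 2219, against 2475 and 2433 untreated, and Plk2 at 580.1 and 491, against 620.3 and 361. Psat1 was at 6352 and 6029, below its untreated 9066 and 8326 and above its 1 day 2596 and 2160.0. Ldha was at 20439.8 and 21309 and Utf1 at 5159 and 5233, against 5013 and 4489.7 untreated. Zscan4c was at 416 and 495, above both untreated values of 228 and 117. Col4a1 was at 924 and 963, between its untreated and its 1 day values.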
